A study of Mus musculus with 12 samples.

Results

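The transcripts of 9 receptors that guide T cells between blood, lymphoid organs and inflamed tissue were followed in OT-I cells: S1pr1, S1pr5, Cx3cr1, Cxcr3, Gpr183, Ccr7, Cxcr4, Cxcr6 and Ccr2. They are the rows of the raw count table that carry these symbols, 9 of 55421 genes, and all 9 passed the filter on low counts. OT-I cells are CD8 T cells with a transgenic receptor for a peptide of ovalbumin. They were Rroid2 KO or Rroid2 WT, were transferred into mice that were then infected with Listeria monocytogenes expressing ovalbumin (LM-OVA), and were sorted from the spleen as memory precursor effector cells (MPEC) or short-lived effector cells (SLEC). The 12 libraries make 6 groups of 2: KO and WT MPEC on day 14 of infection, KO and WT SLEC on day 14, and KO and WT SLEC on day 7. The transgenic receptor, the transfer, the infection and the organ are common to all 6 groups, so no group holds resting cells. The sources used here do not give the sort gates, the age of the mice, how the allele was made or whether hosts were pooled. The labels do not say whether both libraries of a group came from separate mice, so the p-values below measure only the spread between these libraries, which may be technical.

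All 9 proteins are G protein-coupled receptors that turn a gradient of lipid or chemokine outside the cell into directed movement. S1pr1 and S1pr5 sense sphingosine 1-phosphate, which is high in blood and lymph, and S1pr1 is the receptor that T cells need to leave lymphoid organs. Ccr7 draws cells into the T cell zones of lymph nodes and spleen, and Gpr183 (EBI2) positions them there along oxysterol gradients. Cxcr3, Ccr2 and Cxcr6 lead to inflamed tissue, Cxcr4 to bone marrow, and Cx3cr1, the fractalkine receptor, marks cytotoxic effector T cells that circulate in blood.

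Libraries held 7603551 to 14026594 counts, of which the 9 receptors together took 0.127% to 0.2495%. CD8 T cell markers were high in every library, and the sorted populations carried the RNA of their usual surface markers. Klrg1 averaged 2.54 CPM (the counts scaled to a common library size) in KO MPEC and 2.18 CPM in WT MPEC, against 156 and 142 CPM in KO and WT SLEC on day 14, while Il7r averaged 935 and 879 CPM in KO and WT MPEC, against 57.2 and 27.1 CPM. Both libraries of WT SLEC on day 14 stood apart. There the summed level of a B cell marker list of 15 genes was 449 and 1763.5 CPM, against 19.9 to 281 CPM in the other 10 libraries, with a monocyte and macrophage list at 105 and 138 CPM, against 10.9 to 42.5 CPM. A neutrophil list, at 61.2 and 6.08 CPM against 0 to 5.59 CPM, and a plasma cell list, at 14.6 and 3.86 CPM against 0 to 0.918 CPM, stood above the other 10 libraries as well. Of 2 NK cell markers, Ncr1 had 4 counts over all libraries, while Klrb1c averaged 12.1 and 20.5 CPM in KO and WT MPEC, against 90.6 and 86.0 CPM in KO and WT SLEC on day 14. Of 5 dendritic cell markers, Siglech had 0 counts, Clec9a 7, Flt3 41 and Zbtb46 77, while Cst3 had 5633 counts and averaged 32.6 to 55.3 CPM in the 6 groups. The WT SLEC libraries of day 7 differed from each other more than those of any other group (chi-square per degree of freedom 44.4, against 8.95 to 19.0 in the other 5 groups), and the receptors were among the genes that differed, as given below. RNA of the Rroid2 locus itself is not analysed here.

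Which receptors a cell population carries can be read from counts divided by exon length, which compares genes with each other (CPM per kb of exon). In MPEC the leading transcripts were S1pr1 at 137 ± 13.9 CPM per kb in KO and 122 ± 11.6 in WT, Cxcr3 at 133 ± 17.6 in KO and 115 ± 4.92 in WT, and Cxcr6 at 97.0 ± 15.1 in KO and 94.7 ± 3.43 in WT (SD, n = 2). In SLEC on day 14 the order was led by S1pr5, at 213 ± 7.81 in KO and 224 ± 5.998 in WT, and by Cx3cr1, at 211 ± 0.822 in KO and 171 ± 7.38 in WT, with S1pr1 next at 166 ± 22.2 in KO and 120 ± 1.66 in WT. S1pr5 and Cx3cr1 ranked sixth and seventh of the 9 in MPEC of both genotypes. Ccr7 was among the lowest everywhere, at 13.6 ± 1.05 CPM per kb in KO MPEC and 13.4 ± 2.86 in WT MPEC, and last of the 9 in all 4 SLEC groups.

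**Figure D1:**
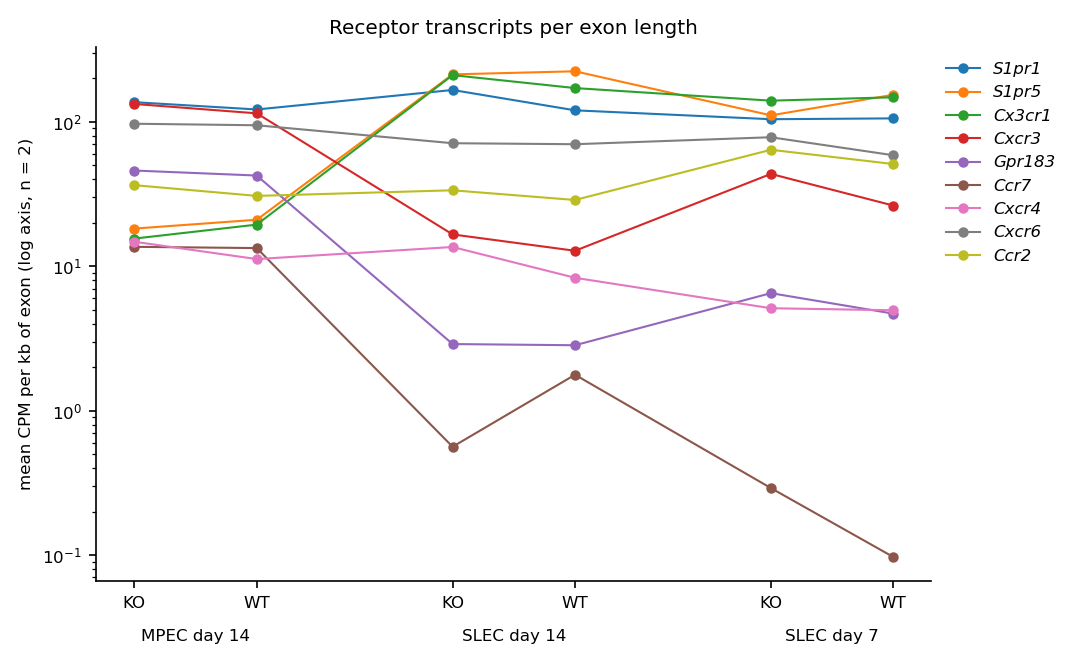
Mean CPM per kb of exon of the 9 receptors (coloured lines, log axis, n = 2 libraries) in KO and WT cells of each population; the lines only join the points of 1 gene. In MPEC S1pr5 and Cx3cr1 lie about 10-fold below their level in SLEC of day 14, and Cxcr3, Gpr183 and Ccr7 lie above theirs in SLEC of either day.

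Summed over the 9 receptors per kb, the share of S1pr5 and Cx3cr1 was 7.10% and 6.18% in KO MPEC and 8.76% and 8.48% in WT MPEC. In SLEC on day 14 it was 59.0% and 57.4% in KO and 60.7% and 62.9% in WT. In SLEC on day 7 it was 44.4% and 46.2% in KO, but 59.7% in WT replicate 1 and 48.2% in WT replicate 2. The share of Cxcr3, Gpr183 and Ccr7 ran the other way, from 35.2% to 37.8% in the 4 MPEC libraries, against 2.17% to 3.34% in the 4 SLEC libraries of day 14. On day 7 this share was 9.38% and 8.90% in KO SLEC, 3.28% in WT SLEC replicate 1 and 8.50% in WT SLEC replicate 2. In these 2 shares replicate 1 of WT SLEC on day 7 thus lay within the range of the day 14 SLEC libraries. Replicate 2 lay near the KO SLEC libraries of its own day. Other receptors of replicate 1 did not match day 14. Ccr2 was at 300.5 CPM, against 186 to 233 CPM in the 4 SLEC libraries of day 14, and Cxcr4 at 10.3 CPM, against 14.9 to 27.3 CPM.

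The first comparison sets MPEC against SLEC on day 14 within each genotype. Of the 9 receptors, 5 differed in KO cells and the same 5 differed in WT cells: S1pr5 and Cx3cr1 were about 10-fold lower in MPEC, and Cxcr3, Gpr183 and Ccr7 were 7-fold or more higher. S1pr1, Cxcr4, Cxcr6 and Ccr2 did not pass the test in either genotype. Calls are from edgeR's quasi-likelihood test at a Benjamini-Hochberg adjusted p under 0.05 over 14460 genes, a rule that called 5.11% of all genes in KO and 7.96% in WT. These are sorted populations measured in bulk, in which fewer cells that carry a receptor and less of its RNA per cell cannot be told apart.

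S1pr5 (ENSMUSG00000045087.8, chromosome 9, 21242912 to 21248443, minus strand of GRCm38) encodes the sphingosine 1-phosphate receptor of NK cells and late effector T cells. It was at 50.8 and 40.4 CPM in KO MPEC, against 547 and 519 CPM in KO SLEC of day 14. In WT cells it was at 55.6 and 49.4 CPM in MPEC, against 570.4 and 549 CPM in SLEC. The MPEC and SLEC libraries lay far apart in both genotypes, with no overlap. The log2 change was -3.55 ± 0.26 (SE) in KO and -3.41 ± 0.25 in WT, an 11.7-fold and a 10.65-fold lower level (edgeR's quasi-likelihood test, adjusted p = 1.37e-06 and 1.39e-06).

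Cx3cr1 (ENSMUSG00000052336.7, chromosome 9, 119901616 to 120069879, minus strand) followed S1pr5 closely. Its level was 60.2 and 79.96 CPM in KO MPEC, against 951 and 946 CPM in KO SLEC of day 14, and 77.7 and 97.3 CPM in WT MPEC, against 796 and 748 CPM in WT SLEC. It was the most abundant of the 9 in SLEC libraries by plain CPM, and the populations did not overlap. The log2 change was -3.76 ± 0.20 in KO, or 13.53-fold lower, and -3.14 ± 0.20 in WT, or 8.84-fold lower (edgeR's quasi-likelihood test, adjusted p = 2.89e-09 and 1.66e-08). The change in KO exceeded that in WT by -0.61 ± 0.26 on the log2 scale (95% interval -1.17 to -0.06), which did not pass the test of the difference itself (adjusted p = 1).

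Cxcr3 (ENSMUSG00000050232.6, chromosome X, 101731535 to 101734269, minus strand) binds the interferon-induced chemokines Cxcl9, Cxcl10 and Cxcl11. Its level was 209 and 252 CPM in KO MPEC, against 32.8 and 24.7 CPM in KO SLEC of day 14, and 192 and 204 CPM in WT MPEC, against 27.2 and 17.1 CPM in WT SLEC. Every MPEC library was above every SLEC library. The log2 change was 2.99 ± 0.35 in KO and 3.17 ± 0.35 in WT (edgeR's quasi-likelihood test, adjusted p = 6.40e-04 and 3.77e-04).

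Gpr183 (ENSMUSG00000051212.8, chromosome 14, 121952551 to 121965195, minus strand) stood at 123 and 142 CPM in KO MPEC, against 12.4 and 4.26 CPM in KO SLEC of day 14. In WT it stood at 105 and 140.4 CPM in MPEC, against 6.77 and 9.62 CPM in SLEC. The populations were far apart, and the KO SLEC libraries differed from each other by more than the WT ones. The log2 change was 3.91 ± 0.32 in KO and 3.89 ± 0.30 in WT, 15.1-fold and 14.8-fold higher in MPEC (edgeR's quasi-likelihood test, adjusted p = 2.35e-06 and 1.03e-06). Without KO SLEC replicate 1 of day 14, the higher of that pair, the KO change of Gpr183 was 4.96.

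Ccr7 (ENSMUSG00000037944.8, chromosome 11, 99144196 to 99155077, minus strand), the receptor for Ccl19 and Ccl21, had its highest level in MPEC. It had 277 and 266 counts in KO MPEC, against 22 and 0 counts in KO SLEC of day 14, and 297 and 323 counts in WT MPEC, against 36 and 69 counts in WT SLEC. On day 7 it had 10 and 4 counts in KO SLEC and 0 and 5 counts in WT SLEC, so the gene passed the filter on low counts through the day 14 groups. The log2 change between MPEC and SLEC was 4.39 ± 0.53 in KO and 2.88 ± 0.38 in WT (edgeR's quasi-likelihood test, adjusted p = 2.86e-05 and 7.54e-05), and the WT call was lost with DESeq2 (2.90 ± 1.31, adjusted p = 0.192). Against a floor of 3 counts in KO SLEC replicate 2, the KO MPEC mean was at least 65.4-fold higher. Without KO SLEC replicate 1 the KO change of Ccr7, then a bound on a floor of 3 counts, was 6.03, and without replicate 2 it was 3.59. The WT SLEC libraries, which carried most of the B cell RNA of the series, had 2.65 CPM of Ccr7 in replicate 1 and 4.37 CPM in replicate 2, with B cell list sums of 449 and 1763.5 CPM. With a term for B cell RNA in the model the change of Ccr7 was 4.19 ± 0.74 in KO and 3.16 ± 0.69 in WT, both called (adjusted p = 0.00342 and 0.0122).

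For the other 4 receptors the interval of the change between the populations included 0 in both genotypes. S1pr1 (ENSMUSG00000045092.8, chromosome 3, 115710433 to 115715072, minus strand) had 387 and 447 CPM in KO MPEC, against 458 and 554 CPM in KO SLEC of day 14, and 346 and 396 CPM in WT MPEC, against 369.6 and 362 CPM in WT SLEC. Its log2 change was -0.28 in KO (95% interval -0.59 to 0.03) and 0.02 in WT (-0.29 to 0.33). S1pr1 thus stayed high in MPEC while S1pr5, the receptor of the same ligand, did not: S1pr1 exceeded S1pr5 per kb by 6.25-fold and 9.08-fold in KO MPEC and 5.11-fold and 6.58-fold in WT MPEC, against ratios of 0.688 and 0.876 in KO SLEC and 0.532 and 0.542 in WT SLEC. Cxcr6 (ENSMUSG00000048521.8, chromosome 9, 123806475 to 123811760, plus strand), the receptor for Cxcl16, leaned higher in MPEC by 0.45 in KO (-0.03 to 0.92) and 0.44 in WT (-0.03 to 0.91) without passing the test. Cxcr4 (ENSMUSG00000045382.6, chromosome 1, 128588199 to 128592293, minus strand), the receptor for Cxcl12, changed by 0.11 in KO (-0.51 to 0.72) and 0.43 in WT (-0.19 to 1.05). Ccr2 (ENSMUSG00000049103.14, chromosome 9, 124101950 to 124113557, plus strand), the receptor for Ccl2, changed by 0.12 in KO (-0.21 to 0.45) and 0.09 in WT (-0.23 to 0.42).

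**Figure D2:**
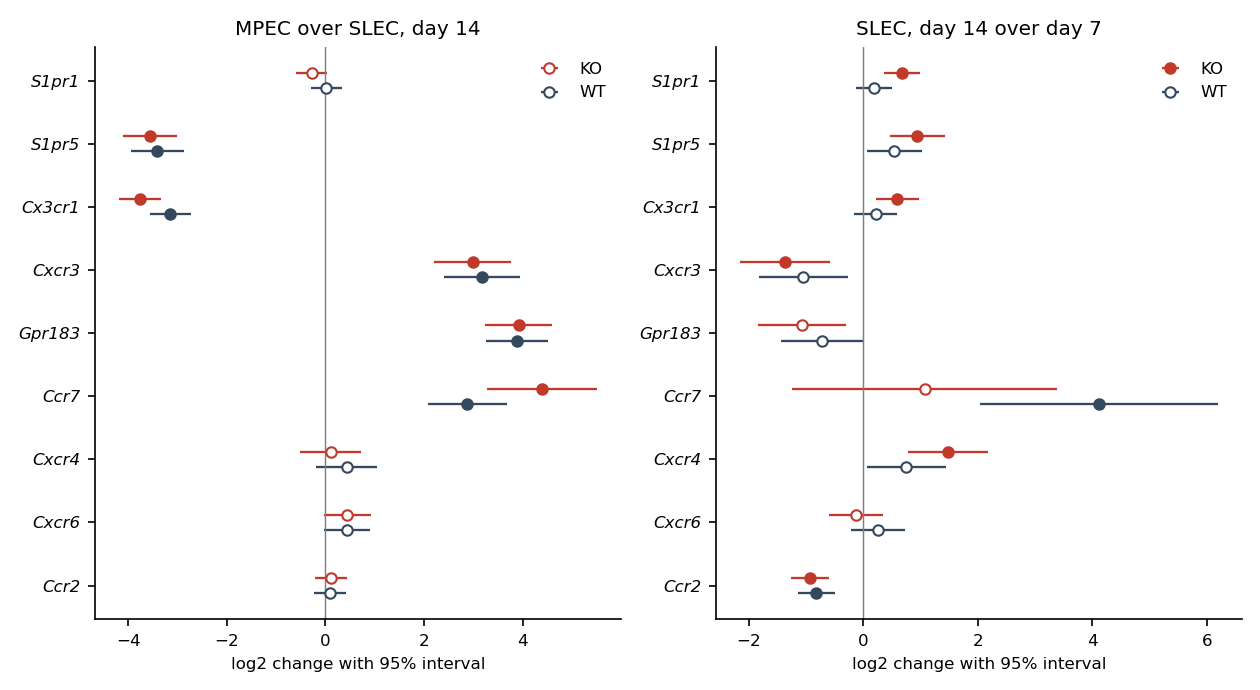
Log2 change of each receptor with its 95% interval, MPEC over SLEC on day 14 (left) and day 14 over day 7 in SLEC (right), in KO (red) and WT (dark) cells; filled points passed the test at an adjusted p under 0.05. In the left panel 5 receptors lie far from 0 in both genotypes; in the right panel 6 points are filled in KO and 2 in WT.

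None of these 5 calls was lost in any of the 12 fits that left out 1 library: the count of called receptors stayed at 5 in each genotype. Of the genes around the members, a few overlap them. S1pr5 shares 51 exonic bases with Gm48303 and Cx3cr1 shares 78 with Gm33858, both on the opposite strand, and Cxcr6 and Gpr183 lie within Fyco1 and Ubac2 without sharing exons. The library kit keeps the strand, but the strand setting of the counting is not stated, so reads from those shared bases cannot be assigned to either partner. Ccr2 and Cxcr6 are neighbours on chromosome 9, with 290189 bases between them, and Cx3cr1 lies 3736595 bases from Cxcr6, yet Cx3cr1 alone of these differed between the populations.

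Because S1pr5 and Cx3cr1 moved together between the populations and Cxcr3 and Gpr183 moved the other way, the promoters of these 4 genes are shown, from 250 bases before to 50 bases after the transcription start in RefSeq, 5′ to 3′. Capitals mark every E-box, the CANNTG element read on both strands, which is bound by E proteins and, in its CACCTG form, by Zeb2 as well.
S1pr5 promoter (GRCm38.p6, chr9:21248394-21248693, minus strand): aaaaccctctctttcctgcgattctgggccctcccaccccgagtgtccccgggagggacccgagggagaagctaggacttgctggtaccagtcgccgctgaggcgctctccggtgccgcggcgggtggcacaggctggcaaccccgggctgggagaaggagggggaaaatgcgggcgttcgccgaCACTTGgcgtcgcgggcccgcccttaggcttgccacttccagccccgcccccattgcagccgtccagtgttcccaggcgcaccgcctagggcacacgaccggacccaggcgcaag
Cx3cr1 promoter (GRCm38.p6, chr9:120068247-120068546, minus strand): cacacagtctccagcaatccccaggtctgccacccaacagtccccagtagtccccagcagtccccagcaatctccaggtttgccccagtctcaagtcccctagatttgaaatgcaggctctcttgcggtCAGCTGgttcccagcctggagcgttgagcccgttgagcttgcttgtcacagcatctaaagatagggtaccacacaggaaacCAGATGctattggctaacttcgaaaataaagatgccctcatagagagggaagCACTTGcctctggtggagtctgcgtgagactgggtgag
Cxcr3 promoter (GRCm38.p6, chrX:101734098-101734397, minus strand): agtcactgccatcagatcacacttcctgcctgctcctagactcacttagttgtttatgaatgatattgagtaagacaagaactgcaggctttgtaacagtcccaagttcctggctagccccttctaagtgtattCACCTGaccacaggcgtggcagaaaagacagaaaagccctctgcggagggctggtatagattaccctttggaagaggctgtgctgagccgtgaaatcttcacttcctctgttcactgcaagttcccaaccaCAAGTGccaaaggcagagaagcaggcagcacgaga
Gpr183 promoter (GRCm38.p6, chr14:121965144-121965443, minus strand): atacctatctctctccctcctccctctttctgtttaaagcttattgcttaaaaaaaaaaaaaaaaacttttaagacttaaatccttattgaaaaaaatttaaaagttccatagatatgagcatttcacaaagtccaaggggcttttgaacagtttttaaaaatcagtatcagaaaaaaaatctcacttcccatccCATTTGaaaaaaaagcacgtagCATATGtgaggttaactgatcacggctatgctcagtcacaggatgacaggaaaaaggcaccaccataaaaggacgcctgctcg
The S1pr5 promoter held 1 E-box, the Cx3cr1 promoter 3, and the Cxcr3 and Gpr183 promoters 2 each, where 72.3% of 32851 RefSeq promoters of this length hold at least 1. The CACCTG form, a subset of the E-boxes that was likewise read on both strands, occurred once in the Cxcr3 promoter, starting 116 bases before the start, and in none of the other 6 promoters available; 20.2% of all promoters hold it. The KLF element CCACCC, read on both strands, occurred at 2 places in S1pr5 and 1 in Cx3cr1, and at none in Cxcr3, Gpr183, Cxcr4, Cxcr6 or Ccr2, with 31.5% of all promoters holding it. The T-box element TCACACC and the FOXO element GTAAACA, held by 3.98% and 3.65% of all promoters on either strand, matched none of the 7. The TCF element CTTTGA, held by 16%, matched Cxcr6 alone. These counts describe the letters of the windows and do not show that any factor binds there.

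The likeness of each receptor to other genes was taken as the root-mean-square difference over the 12 libraries between log2 CPM values centred on each gene's mean. The 7869 genes compared had a log2 CPM that averaged 3 or more. Predicted genes and genes of T cell receptor and immunoglobulin segments were left out. The likeness is a description and carries no test, since all genes share the same libraries. The gene most like S1pr5 was Zeb2, a transcriptional repressor of terminal effector cells, at a difference of 0.19, followed by Cx3cr1 at 0.31 and Tbkbp1 at 0.53, while S1pr5 itself ranged over 3.81 on the log2 scale. For Cx3cr1 the closest were S1pr5, Zeb2 at 0.34 and the chemerin receptor gene Cmklr1 at 0.43. Gpr183 was closest to Myc at 0.55 and to Cxcr3 at 0.64, and Cxcr3 to Gpr55 at 0.48, Bicdl1 at 0.52 and Wfikkn2 at 0.55. Ccr7 had no close companion: Slfn5, Aff3 and Il7r were nearest, at 1.15, 1.16 and 1.29 over its own range of 7.47. For receptors that vary little a small difference says little: Cxcr6, with a range of 0.97, was nearest to Cst7, Zfp64 and Scarb2 (0.15 to 0.17), S1pr1, with a range of 0.90, to Zc3h13, Nudcd3 and Rock1 (0.07 to 0.08), Ccr2 to Blmh and Cfl1 (0.13 each), and Cxcr4 to Dtx1, Cpne3 and Zmym4 (0.25 to 0.27).

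The second comparison follows SLEC from the height of the response to its contraction, day 14 against day 7. In KO SLEC 6 receptors changed: S1pr1, S1pr5, Cx3cr1 and Cxcr4 were higher on day 14, and Cxcr3 and Ccr2 were lower. In WT SLEC 2 receptors changed, Ccr7 higher and Ccr2 lower on day 14. Over all genes the same rule called 17.2% in KO and 9.94% in WT. The test of the difference between the genotypes called none of the 9.

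Ccr2, the receptor for the monocyte chemoattractants Ccl2, Ccl7 and Ccl12, was the one receptor called in both genotypes. It was at 221 and 233 CPM in KO SLEC of day 14, against 417 and 449 CPM on day 7. In WT SLEC it was at 186 and 203 CPM on day 14, against 300.5 and 389.6 CPM on day 7. Both day 14 libraries lay below both day 7 libraries in each genotype. The log2 change was -0.93 ± 0.16 in KO and -0.83 ± 0.15 in WT (edgeR's quasi-likelihood test, adjusted p = 6.05e-04 and 0.00238). The WT call of Ccr2 was lost when the fit held only the WT SLEC libraries (adjusted p = 0.0549) or a term for B cell RNA (-1.26 ± 0.37, adjusted p = 0.113).

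The sphingosine 1-phosphate receptors were higher on day 14 in KO SLEC. S1pr1 was at 458 and 554 CPM in KO SLEC on day 14, against 303 and 332 CPM on day 7, a log2 change of 0.67 ± 0.15 (edgeR's quasi-likelihood test, adjusted p = 0.00516). In WT SLEC it was at 369.6 and 362 CPM on day 14, against 347 and 296 CPM on day 7, a change of 0.19 (95% interval -0.13 to 0.50) that was not called. S1pr5 was at 547 and 519 CPM in KO SLEC on day 14, against 247 and 307 CPM on day 7, a change of 0.94 ± 0.23 (adjusted p = 0.0109). The WT libraries of S1pr5 had 570.4 and 549 CPM on day 14, against 502 CPM in replicate 1 and 268 CPM in replicate 2 on day 7. The change in WT was 0.54 ± 0.22 (adjusted p = 0.151) with both, and 1.06 ± 0.18 (adjusted p = 3.31e-04) without replicate 1.

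Cx3cr1 was at 951 and 946 CPM in KO SLEC on day 14, against 525 and 738 CPM on day 7, a log2 change of 0.59 ± 0.18 (edgeR's quasi-likelihood test, adjusted p = 0.0309). In WT SLEC it was at 796 and 748 CPM on day 14, against 735 and 598 CPM on day 7, a change of 0.21 (95% interval -0.16 to 0.58). Cxcr4 rose by 1.48 ± 0.33 in KO (adjusted p = 0.00537), with 27.3 and 21.9 CPM on day 14, against 5.36 and 13.2 CPM on day 7. Its day 7 libraries differed by over 2-fold, and its change was 0.90 without replicate 1 and 2.21 without replicate 2. In WT SLEC Cxcr4 had 15.2 and 14.9 CPM on day 14, against 10.3 and 7.68 CPM on day 7, and was not called (0.75 ± 0.33, adjusted p = 0.169).

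Cxcr3 and Gpr183, the receptors that were high in MPEC, had a lower mean in SLEC of day 14 than of day 7 in both genotypes. Cxcr3 was at 32.8 and 24.7 CPM in KO SLEC on day 14, against 68.9 and 82.0 CPM on day 7, a log2 change of -1.37 ± 0.35 (edgeR's quasi-likelihood test, adjusted p = 0.0243). In WT SLEC it was at 27.2 and 17.1 CPM on day 14, against 27.4 CPM in replicate 1 and 63.7 CPM in replicate 2 on day 7. Replicate 1 of day 7 was thus at the level of the higher day 14 library. The change in WT was -1.05 ± 0.35 (adjusted p = 0.0912) with both, and -1.54 ± 0.23 (adjusted p = 1.13e-04) without replicate 1; DESeq2 called Cxcr3 in WT with both (-1.04 ± 0.30, adjusted p = 0.00747). Gpr183 was at 12.4 and 4.26 CPM in KO SLEC on day 14, against 15.5 and 22.1 CPM on day 7, and just missed the threshold (-1.08 ± 0.36, adjusted p = 0.0512). DESeq2 called Gpr183 there (-1.15 ± 0.34, adjusted p = 0.00617). In WT SLEC it was at 6.77 and 9.62 CPM on day 14, against 12.1 and 15.1 CPM on day 7 (-0.72 ± 0.34, adjusted p = 0.215).

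Ccr7 was called in WT SLEC alone, at 36 and 69 counts on day 14, against 0 and 5 counts on day 7. The WT day 14 mean was at least 14.7-fold above the floor of 3 counts in WT replicate 1 of day 7. The fitted log2 change was 4.12 ± 1.00 (edgeR's quasi-likelihood test, adjusted p = 0.0106). The call of Ccr7 was lost without WT SLEC replicate 1 of day 7 (3.18, adjusted p = 0.0608), without WT SLEC replicate 2 of day 14 (3.69, adjusted p = 0.116), and with a term for B cell RNA (3.53 ± 1.81, adjusted p = 0.461). That term was highest in the WT libraries of day 14, so it cannot be told apart from the day here. The part of the B cell RNA of these libraries in the result was not tested. In KO SLEC the change of Ccr7 was 1.07 ± 1.11, with 22 and 0 counts on day 14, against 10 and 4 counts on day 7. Cxcr6 was not called in either genotype, at -0.13 in KO (95% interval -0.61 to 0.35) and 0.25 in WT (-0.22 to 0.73).

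The 6 calls in KO SLEC rested on few libraries. Without replicate 1 of KO SLEC on day 7 the calls of S1pr5 (adjusted p = 0.109), Cx3cr1 (0.275), Cxcr3 (0.0693) and Cxcr4 (0.0841) were lost in edgeR's quasi-likelihood test. Replicate 2 of that group decided Cxcr3 as well (0.140 without it). Without replicate 1 of KO SLEC on day 14, S1pr5 (0.0744), Cx3cr1 (0.113), Cxcr3 (0.089) and Cxcr4 (0.0681) were lost and Gpr183 was called (-2.12, adjusted p = 0.00915). Without its replicate 2, S1pr1 (0.104), S1pr5 (0.0738), Cx3cr1 (0.145) and Cxcr3 (0.180) were lost. Ccr2 kept its call in KO in all 12 omissions.

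The difference of the day effect between the genotypes, which is also the KO effect on day 14 minus that on day 7, called 0.00692% of all genes and none of the 9 receptors. The largest lean with an interval clear of 0 was that of S1pr1, at 0.49 ± 0.21 (95% interval 0.04 to 0.93), with an adjusted p of 0.734 in edgeR's quasi-likelihood test. The difference of the KO effect between MPEC and SLEC on day 14 called 0% of all genes, with 612 (4.23%) at an unadjusted p under 0.05, and likewise none of the 9, of which Cx3cr1 alone had an unadjusted p under 0.05. A receptor called in KO and not in WT is therefore not shown to differ between the genotypes.

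**Figure D3:**
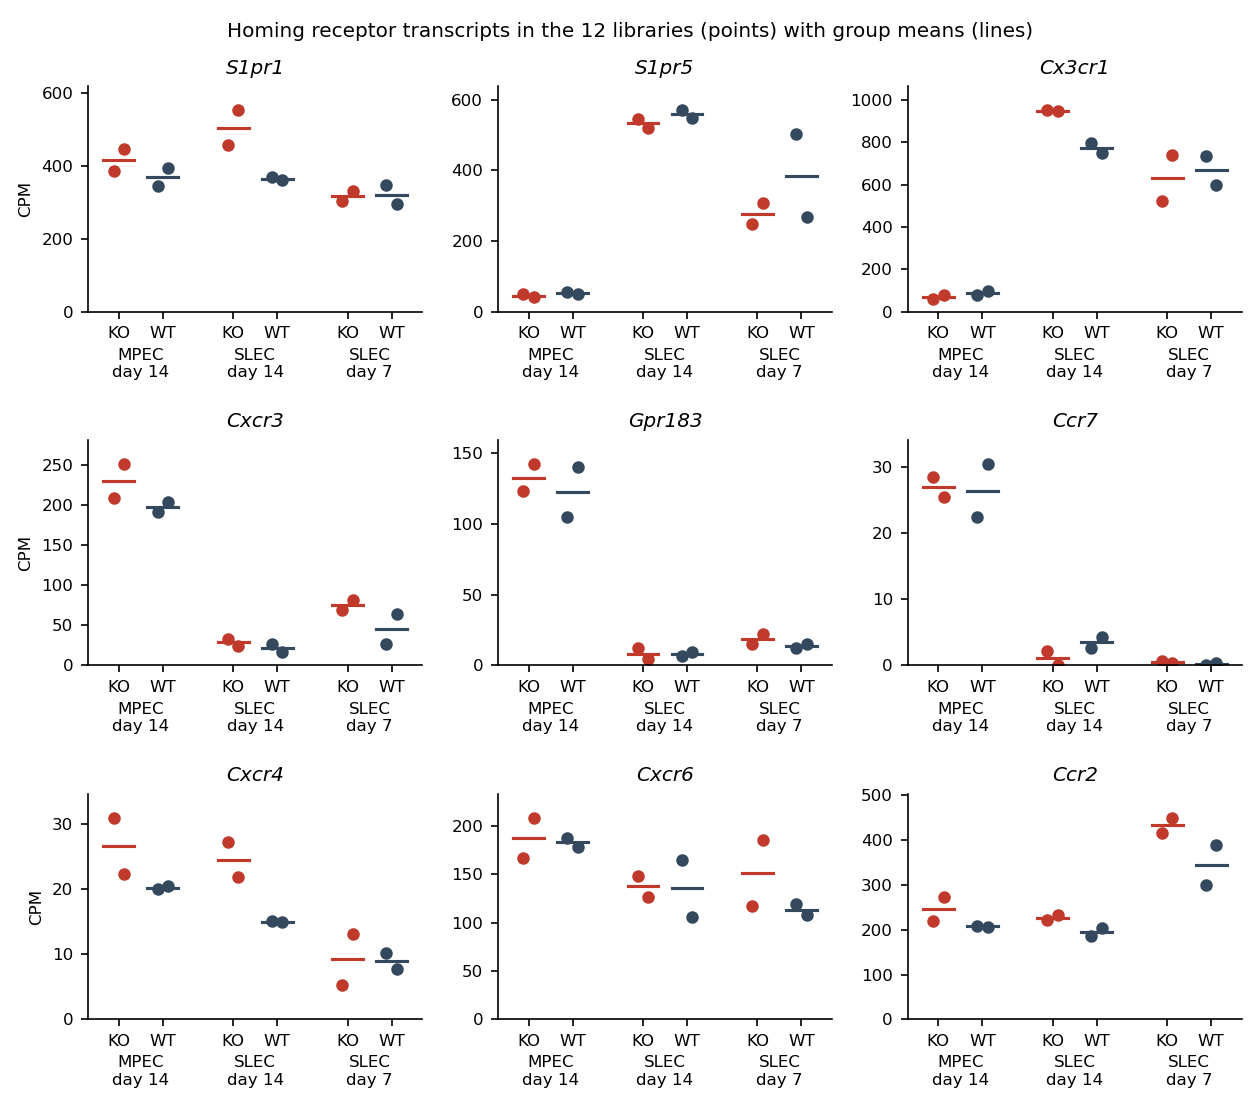
CPM of the 9 receptors in every library (points) with the group mean (line, n = 2), KO in red and WT in dark, by population and day; each panel has its own axis from 0. The KO and WT points lie close together beside the distance between MPEC and SLEC for S1pr5, Cx3cr1, Cxcr3, Gpr183 and Ccr7, and the WT SLEC libraries of day 7 lie apart for S1pr5 and Cxcr3.

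The third comparison, KO against WT within each population, is the one the series was built for. None of the 9 receptors was called in MPEC on day 14, in SLEC on day 14, in SLEC on day 7 or in the mean of the 3 populations. The same rule called 0.0138%, 0.539%, 0.0277% and 0.083% of all genes in these comparisons, so few calls were made among any genes. At an unadjusted p under 0.05 edgeR's quasi-likelihood test gave 0, 2, 1 and 3 of the 9. Over all genes that threshold gave 2.46%, 12.5%, 3.37% and 8.26% in the same order. By adjusted p DESeq2 called 0 of the 9 in each. In the mean of the 3 populations 7 of the 9 leaned higher in KO, and the median of the 9 was 0.205 on the log2 scale, against -0.016 over all genes. The 9 changes ran from -0.25 for S1pr5 to 0.45 for Cxcr3.

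Ccr2 leaned higher in KO in all 3 populations. It was at 220.4 and 272 CPM in KO MPEC, against 208 and 207 CPM in WT MPEC. In SLEC on day 14 it was at 221 and 233 CPM in KO, against 186 and 203 CPM in WT, and on day 7 at 417 and 449 CPM in KO, against 300.5 and 389.6 CPM in WT. Both KO libraries lay above both WT libraries each time. How many of all genes separated in this way was not counted. With so few libraries per group, such a separation can also arise by chance. The mean log2 change was 0.27 ± 0.09 (95% interval 0.08 to 0.45), which was not called (edgeR's quasi-likelihood test, adjusted p = 0.45). That adjusted p was the smallest of the receptors in the mean of the 3 populations.

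S1pr1 leaned higher in KO in SLEC of day 14, at 458 and 554 CPM in KO, against 369.6 and 362 CPM in WT. The log2 change was 0.47 ± 0.15 (95% interval 0.15 to 0.78), with the smallest adjusted p of the 9 in that comparison, 0.158 (edgeR's quasi-likelihood test). The WT libraries of this comparison carried the B cell RNA, and with a term for it the change of S1pr1 was -0.0023 ± 0.35. That term, the log2 of the B cell list sum plus 1, was 8.81 and 10.8 in WT and 5.78 and 4.57 in KO. It thus ran with genotype, and the SE rose from 0.15 to 0.35. B cell RNA and genotype cannot be told apart here. In MPEC the change of S1pr1 was 0.17 (-0.15 to 0.48) and in SLEC of day 7 it was -0.02 (-0.33 to 0.30). Cxcr4 showed the same lean in SLEC of day 14, at 27.3 and 21.9 CPM in KO, against 15.2 and 14.9 CPM in WT (0.72 ± 0.30, adjusted p = 0.319).

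Cxcr3 and S1pr5 leaned in opposite directions on day 7, and here 1 WT library decided the outcome. Cxcr3 was at 68.9 and 82.0 CPM in KO SLEC, against 27.4 CPM in WT replicate 1 and 63.7 CPM in WT replicate 2. S1pr5 was at 247 and 307 CPM in KO SLEC, against 502 CPM in WT replicate 1 and 268 CPM in WT replicate 2. With both WT libraries the log2 change was 0.72 ± 0.33 for Cxcr3 and -0.47 ± 0.22 for S1pr5 (edgeR's quasi-likelihood test, adjusted p = 1 for both). Without WT replicate 2 both were called, Cxcr3 at 1.47 ± 0.25 (adjusted p = 0.00395) and S1pr5 at -0.84 ± 0.16 (adjusted p = 0.00981). Without WT replicate 1 they were at 0.24 and 0.05. Replicate 1 also had more RNA of an effector marker list (Klrg1, Zeb2, Tbx21, Gzma and Prf1), at a sum of 5777 CPM, against 3439 CPM in replicate 2 and 3749.5 and 4870 CPM in KO SLEC; its part in the result was not tested. In the mean of the 3 populations Cxcr3 changed by 0.45 ± 0.19 (adjusted p = 0.592), and it was called without a filter on low counts (0.44 ± 0.11, adjusted p = 0.021) and without that replicate 2 (0.69 ± 0.12, adjusted p = 0.0148).

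The remaining receptors gave intervals that bound a KO effect. For Cx3cr1 the log2 change was -0.32 in MPEC (95% interval -0.73 to 0.09), 0.30 in SLEC of day 14 (-0.08 to 0.67) and -0.08 in SLEC of day 7 (-0.45 to 0.29). For Gpr183 it was 0.12 (-0.39 to 0.63), 0.09 (-0.74 to 0.92) and 0.45 (-0.22 to 1.122) in the same order. Cxcr6 had 0.04 (-0.43 to 0.50), 0.03 (-0.45 to 0.50) and 0.41 (-0.07 to 0.88). The transcript of Ccr7 was too scarce in SLEC to bound its change, at -1.48 on day 14 (-3.00 to 0.05) and 1.57 on day 7 (-1.75 to 4.89), and in MPEC it was 0.04 (-0.59 to 0.67). A change as large as those between MPEC and SLEC thus lies outside the intervals of S1pr5, Cx3cr1, Cxcr3 and Gpr183 in all 3 populations.

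**Figure D4:**
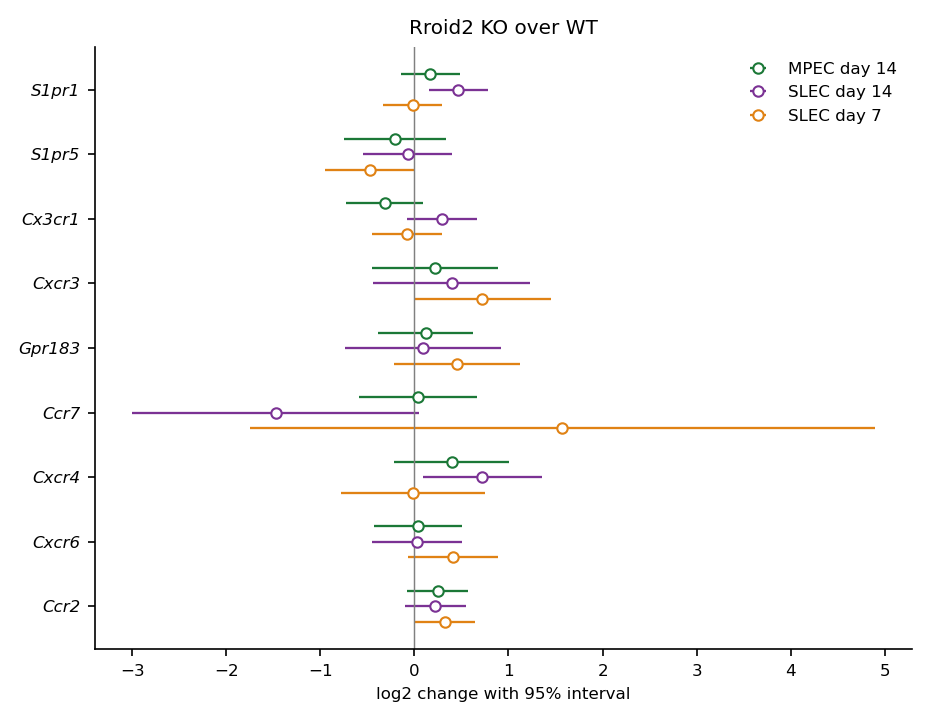
Log2 change of each receptor between Rroid2 KO and WT cells with its 95% interval in MPEC of day 14 (green), SLEC of day 14 (purple) and SLEC of day 7 (orange); all points are open because none passed the test at an adjusted p under 0.05. Most intervals include 0, and those of Ccr7 in SLEC are the widest.

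Genes that act with these receptors were counted by list. Of 17 transcription factors known to act on homing receptor genes, 2 were higher and 7 lower in KO MPEC than in KO SLEC on day 14, and 3 were higher and 5 lower in WT MPEC than in WT SLEC, where 5.11% of all genes were called in KO and 7.96% in WT. The median log2 change of this list was -0.272 in KO and -0.181 in WT, against -0.003 and -0.005 over all genes. Zeb2, which with T-bet holds effector cells in their terminal state, averaged 106 CPM in KO MPEC, against 1519 CPM in KO SLEC, and 121 CPM in WT MPEC, against 1121 CPM in WT SLEC (-3.85 ± 0.25 and -3.21 ± 0.24, adjusted p = 4.42e-07 and 1.60e-06 in edgeR's quasi-likelihood test). Bhlhe40 fell by 2.15 and Zfp683, the gene of Hobit, by 2.06 in KO MPEC, and by 2.28 and 1.92 in WT MPEC. Both KO calls were lost with a term for B cell RNA and without KO SLEC replicate 2 of day 14, where the changes were -1.71 for Bhlhe40 and -1.38 for Zfp683. Foxo1, known to promote Ccr7 and Klf2, rose by 0.68 in KO MPEC and 0.92 in WT MPEC, and both calls were lost with a term for B cell RNA. Klf2 itself, named after its value was seen, was lower in KO MPEC, at 440 CPM, against 791 CPM in KO SLEC (-0.85 ± 0.16, adjusted p = 0.00339 in edgeR's quasi-likelihood test), and was not called in WT. Tcf12, an E protein gene, rose by 0.66 in WT MPEC, a call lost with a term for B cell RNA, and was not called in KO. Among the selectin and selectin ligand genes, Cd44, the hyaluronan receptor gene, rose by 0.81 ± 0.18 in WT MPEC. That call of Cd44 was lost with a term for B cell RNA, and Cd44 was not called in KO. St3gal4, a sialyltransferase gene that helps complete selectin ligands, fell by 0.82 in KO MPEC and 0.60 in WT MPEC.

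In the other lists few genes were called between the populations, and 1 gene of 20 or of 11 is close to the share called among all genes. Of 16 other chemoattractant and lipid receptors tested, 2 were higher in KO MPEC and 2 in WT MPEC, with Gpr174, a lysophosphatidylserine receptor gene, at 0.81 ± 0.17 and 0.92 ± 0.17; 2 were lower in WT MPEC. These were Cxcr5 (7.27, against 31.9 CPM in WT SLEC) and Ccr6 (0.415, against 11.8 CPM in WT SLEC), named after their values were seen. B cells also carry both, and the part of B cell RNA in these calls was not tested. Of 15 desensitisation genes, 2 were higher and 1 lower in KO MPEC, and 1 was higher and 2 were lower in WT MPEC. Grk5, a kinase that switches off occupied receptors, fell by 1.72 in KO MPEC and 1.73 in WT MPEC, and its relative Grk6 rose by 0.68 in KO MPEC. Of 20 signalling and motility genes, the GTPase gene Rap1b alone was called, lower by 1.14 in KO MPEC and 0.92 in WT MPEC. Of 11 ligand and ligand enzyme genes, Adam17, a sheddase of fractalkine, alone was called, lower by 0.52 in KO MPEC and 0.53 in WT MPEC. The KO call of Adam17 was lost without a filter on low counts and with the replicate number as a block. It was also lost without both WT SLEC libraries of day 14. With a term for B cell RNA the calls of Adam17 were lost in both genotypes.

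Between the days, where the test called 17.2% of all genes in KO and 9.94% in WT, 6 of the 17 transcription factors were higher and 1 lower on day 14 in KO SLEC, and 1 was higher in WT SLEC. Bach2 rose in both, by 1.94 ± 0.24 in KO and 1.61 ± 0.22 in WT, and Zeb2 rose by 1.27 in KO. Lef1 rose by 1.71 in KO, but by 0.95 without KO SLEC replicate 2 of day 14, and its call was lost without either library of KO SLEC on day 7. Id2 fell by 0.58 in KO, a call kept in 7 of 12 omissions and lost with the term for B cell RNA; without KO SLEC replicate 1 of day 14 the change of Id2 was -0.90 and without replicate 2 it was -0.33.

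Of 20 signalling and motility genes, 4 were lower on day 14 in KO, near the share of all genes, and 3 in WT. Coro1a, the gene of the actin regulator coronin that T cells need to leave lymphoid organs, fell by 0.91 ± 0.16 in KO and 0.89 ± 0.16 in WT. Gnb2, a G protein subunit gene, fell by 0.88 in KO and 0.60 in WT, where its change was -0.39 and not called without WT SLEC replicate 2 of day 7. Gng2 fell by 0.82 in KO, a call kept in 6 of 12 omissions and lost with the term for B cell RNA. Rac1 was called at -0.54 in WT but kept the call in 3 of 12 omissions, stood at -0.29 without WT SLEC replicate 2 of day 7, and lost it with only the compared libraries and with the term for B cell RNA.

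Of the 16 other receptors, 3 rose and 1 fell in WT. Those that rose, named after their values were seen, were Cxcr5, Ccr6 and S1pr3, at 31.9, 11.8 and 5.34 CPM on day 14. On day 7 they were at 0.576, 0.155 and 0 CPM. Their mean log2 CPM was 1.1, -0.92 and -1.03, under the level of 3 for named genes. S1pr3 and Ccr6 may have passed the filter on low counts only through WT SLEC of day 14, so their calls are no support for a change. The part of B cell RNA in these calls was not tested. Of the 11 ligand and ligand enzyme genes the sphingosine 1-phosphate lyase gene Sgpl1 alone was called, and it rose by 0.68 in KO and 0.79 in WT. The WT call of Sgpl1 was lost with only the compared libraries and with the term for B cell RNA. Of the 15 desensitisation genes, 1 rose and 3 fell in KO, and 2 rose in WT. Arrb1, the gene of a beta-arrestin, rose by 1.98 in KO, while Grk6 and Rgs19 fell by 0.50 and 0.55 in KO. In WT Arrb1 was called at 1.31, but kept the call in 2 of 12 omissions, ran from 0.71 without WT SLEC replicate 2 of day 7 to 2.35 without its replicate 1, and lost the call with only the compared libraries and with the term for B cell RNA. Of the 43 changes that the rule for named genes picked from the lists, over the populations and the days, 10 kept their call in all 12 omissions. They include those of Zeb2 in its 3 comparisons, Bach2 and Coro1a in both genotypes, Gnb2 in KO SLEC and Gpr174 in WT MPEC, and the calls of 33 were lost in at least 1 omission.

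In the comparisons of KO with WT the lists gave a single call, Cxcr5 in SLEC of day 14, named after its value was seen. It was at 0.137 CPM in KO, against 31.9 CPM in WT, where B cell markers were high. The part of B cell RNA in that call was not tested. None of the 17 transcription factors, 20 signalling genes, 15 desensitisation genes, 11 ligand genes or 10 selectin genes was called in any population by edgeR's quasi-likelihood test.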

How the data were processed

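The authors deposited raw read counts per gene (55421 genes, 12 libraries). Per the submitters' processing notes, bcl2fastq, STAR 2.6.1a and the GRCm38 build were used; how reads were counted, on which annotation and whether by strand is not stated, so reads shared by overlapping genes cannot be assigned. Counts were tested as deposited with edgeR 4.0.16 (R 4.3.3): low counts were removed (filterByExpr, 14460 genes kept), libraries were scaled by TMM, 1 coefficient was fitted per group over all 12 libraries (6 residual degrees of freedom), and a robust quasi-likelihood test with Benjamini-Hochberg adjustment called genes at an adjusted p under 0.05. The procedure was first tested on simulated data. CPM uses TMM-scaled library sizes, and CPM per kb divides by exon length. Values shown ± are SE for a log2 change and SD for a level. A count of 0 was bounded by 3 counts in that library, which covers counting error only. The members and lists were chosen with earlier results of these data known. From each list, up to 3 called genes with the largest change in each direction and a mean log2 CPM of at least 3 were named, and for each receptor the 3 genes most like it. Some genes that this rule picked are not reported here. Promoter sequences are from RefSeq (GRCm38.p6), which matched 7 of the 9 genes. Alternatives were DESeq2 1.42.0, RLE scaling, no filter on low counts, the replicate number as a block, only the libraries compared, a term for B cell RNA, and each library left out in turn.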

Additional observations from a re-analysis of the deposited data

How the results depend on the processing

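Values here are log2 changes of single receptors, in the order of the report, or counts of the 9 receptors called. The 5 calls between MPEC and SLEC in KO held under every alternative, and those in WT held except for Ccr7 with DESeq2. RLE scaling changed no receptor's direction or call, and neither did leaving out both WT SLEC libraries of day 14, an alternative chosen after seeing the data and run on the 36 member changes without that group. Only the libraries of the comparison could not be used for the mean of the 3 populations, which needs all 12. The cause of the changes below was not tested.

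The count of called receptors for day 14 against day 7 in WT SLEC, 2 in the report, was 4 without a filter on low counts, with S1pr5 (0.56) and Cxcr3 (-1.03) added. It was 0 with only the libraries of the comparison, where Ccr7 had an adjusted p of 0.0579 and Ccr2 of 0.0549 in edgeR's quasi-likelihood test, and 0 with a term for B cell RNA. For the mean KO effect it was 1 without a filter, Cxcr3. Leaving out 1 library gave 0 to 2 called for KO against WT in SLEC of day 7, 0 to 1 for the mean KO effect, 2 to 6 for day 14 against day 7 in KO SLEC, 1 to 3 in WT SLEC, and 5 throughout for MPEC against SLEC.

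The labels do not say whether libraries with the same replicate number share a host or a batch. To look for this, the log2 CPM difference of replicate 1 from replicate 2 was taken within each group. These differences were then correlated between the 6 groups over 8206 genes. Of the 15 correlations, from -0.16 to 0.21, 5 were above 0.1. The highest joined KO MPEC with WT MPEC (0.207), and KO SLEC of day 7 with KO MPEC (0.196) and with WT MPEC (0.2). A pairing in only some of the groups was not tested. With the replicate number as a block, Gpr183 was called for day 14 against day 7 in KO SLEC (-1.05 ± 0.34, adjusted p = 0.0484 in edgeR's quasi-likelihood test), its KO effect in MPEC minus SLEC turned to -0.0063, and no other receptor's call or direction changed.

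Other changes of direction were of values that were not called. For KO against WT in SLEC of day 7, Cxcr4 was 0.0496 with DESeq2, 9e-04 without a filter and 0.0057 with only the libraries of the comparison. Ccr7 in the mean of the 3 populations was -0.0057 with DESeq2, and S1pr1 in WT MPEC against SLEC was -0.0069 without a filter. The term for B cell RNA was highest in the WT SLEC libraries of day 14, so in comparisons with that group the 2 cannot be told apart. With a term for B cell RNA, KO against WT was 0.0465 for S1pr1 in SLEC of day 7. In SLEC of day 14 it was -0.0023 for S1pr1, -0.1131 for Cx3cr1 and -0.4843 for Cxcr6, and Cxcr6 was -0.0423 in MPEC and -0.0143 in the mean. With that term the KO effect of day 14 minus day 7 was -0.0488 for S1pr1, -0.3702 for S1pr5, -0.0959 for Cx3cr1, 0.2898 for Cxcr3, 0.6193 for Gpr183 and 0.3856 for Ccr2. The KO effect in MPEC minus SLEC was 0.1081 for S1pr1, 0.4207 for S1pr5, -0.732 for Gpr183 and -0.3535 for Ccr2. MPEC against SLEC was -0.0538 for Ccr2 in KO and -0.202 for S1pr1 in WT.

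Leaving out 1 library turned these further changes. For KO against WT in SLEC of day 7 the range was -0.1137 to 0.097 for S1pr1, -0.842 to 0.048 for S1pr5, -0.3542 to 0.158 for Cx3cr1 and -0.7494 to 0.5658 for Cxcr4. In SLEC of day 14 it was -0.9603 to 0.5746 for Gpr183 and -0.26 to 0.3575 for Cxcr6. In MPEC it was -0.1779 to 0.2524 for Ccr7, -0.0817 to 0.3289 for Gpr183 and -0.1442 to 0.18 for Cxcr6. In the mean it was -0.2726 to 0.3051 for Ccr7, -0.1284 to 0.0427 for Cx3cr1 and -0.1334 to 0.3804 for Gpr183. The KO effect of day 14 minus day 7 ran from -0.1277 to 0.7601 for S1pr5, -1.0766 to 0.1598 for Cxcr3, -1.4093 to 0.1227 for Gpr183 and -0.3329 to 0.0617 for Ccr2. The KO effect in MPEC minus SLEC ran from -0.3096 to 0.018 for S1pr5, -0.5308 to 0.1247 for Cxcr3, -0.4598 to 1.0714 for Gpr183, -0.3251 to 0.2925 for Cxcr6 and -0.1403 to 0.1687 for Ccr2. Day 14 against day 7 ran from -0.4824 to 1.8604 for Ccr7 and -0.4458 to 0.2378 for Cxcr6 in KO, and from -0.0792 to 0.5382 for Cxcr6 in WT. MPEC against SLEC ran from -0.1455 to 0.3162 for Cxcr4 and -0.0495 to 0.2597 for Ccr2 in KO, and from -0.08 to 0.108 for S1pr1 in WT. Where an omission left Ccr7 at 0 counts in a group, its change is a bound on a floor of 3 counts, and the mean and the differences of KO effects have no value.

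Of the 43 changes picked from the lists, 43 kept their call with DESeq2, 42 without a filter, 41 with the replicate block, 36 with only the libraries of the comparison and 16 with the term for B cell RNA. Without both WT SLEC libraries of day 14, 22 of the list changes that do not use them kept their call and 1 lost it. With 2 libraries per group, a receptor at a few counts, such as Ccr7 in SLEC of day 7, has no bounded change.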
